A study of Mus musculus with 6 samples.

Results

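Complex I, or NADH:ubiquinone oxidoreductase, is the entry enzyme of the mitochondrial respiratory chain. Its mRNAs from nuclear genes were examined in the hearts of female NBCe1-B/C-knockout (KOb/c) mice and wild-type (WT) mice. The genes were chosen by name, as the protein-coding genes with a symbol beginning with Ndufa, Ndufb, Ndufc, Ndufs or Ndufv, Ndufab1 included and the Ndufaf assembly factors left out. This rule gave 38 of the 16018 genes listed, and no expression value was used in it. Of the 38 genes, 36 encode subunits of complex I. The other two are Ndufa4, whose product is now counted as a component of complex IV, and Ndufa4l2, a paralog of Ndufa4 that is not a complex I subunit. Ndufa11b, Ndufb4c, Ndufs6b, Ndufab1-ps and Ndufb1-ps were left out because they are not annotated as protein-coding. Among these, Ndufb4c and Ndufs6b are processed pseudogenes that are listed in the table at no more than 49.2 and 22.5 normalized counts in any library, so any reads that they share with Ndufb4 and Ndufs6 cannot be assigned with certainty. The 38 genes lie on 15 chromosomes, with Ndufa1 and Ndufb11 on the X chromosome. All 38 passed the filter on low values, with a lowest mean over the 6 libraries of 1047 normalized counts.

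Each group held 3 mice between 4 and 5 weeks of age. KOb/c mice lack the NBCe1-B and NBCe1-C variants of the sodium bicarbonate cotransporter encoded by Slc4a4, and keep the kidney variant NBCe1-A. The loss is congenital and not limited to the heart. Both genotypes have a C57BL/6J background and came from heterozygous parents. RNAseq of total RNA from the heart gave the number of reads on each gene, which the authors had scaled by 1 factor per library to give normalized counts.

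Complex I takes electrons from NADH, passes them through flavin and iron-sulfur clusters to ubiquinone and pumps protons across the inner mitochondrial membrane. It is built as an L. The matrix arm holds the N module, which binds NADH, and the Q module, which reduces ubiquinone, and the membrane arm holds the proton pumps in a proximal and a distal part. The core subunits that carry out catalysis are split between nuclear genes, for the matrix arm, and mitochondrial DNA, for the membrane arm, and the accessory subunits, all nuclear, surround this core. The heart, which makes most of its ATP by oxidative phosphorylation, is rich in mitochondria.

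The promoters of respiratory chain genes are known for binding sites of nuclear respiratory factor 1 (NRF1) and of YY1, and the sites found near the start sites of complex I genes are shown first because they are a feature that the selection by name did not use. RefSeq promoters (GRCm38.p6, 250 bases before to 50 after the start site) were matched for 33 of the 38 genes, with Ndufa2, Ndufa4l2, Ndufb9 and Ndufs1 among those not matched. The NRF1 motif GCGCNTGCGC, searched on both strands, was in 7 of these 33 genes (21.2%) and in 5.19% of all 27025 genes with a promoter. These 27025 genes outnumber the 16018 listed for these hearts. The shares over all genes with a promoter, here and for the motifs below, are thus not shares of genes expressed in the heart. The 30 bases around 6 of the matches follow, 5′ to 3′ on the strand of the gene, with the matched letters in capitals.
Ndufs5, chr4:123718265-123718294, minus strand: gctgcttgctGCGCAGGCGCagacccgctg
Ndufb4, chr16:37654540-37654569, minus strand: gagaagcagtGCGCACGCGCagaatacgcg
Ndufa11, chr17:56717692-56717721, plus strand: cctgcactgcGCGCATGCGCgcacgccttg
Ndufa5, chr6:24527697-24527726, minus strand: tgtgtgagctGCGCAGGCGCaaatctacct
Ndufs6, chr13:73328479-73328508, minus strand: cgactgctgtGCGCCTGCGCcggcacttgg
Ndufa8, chr2:36049349-36049378, minus strand: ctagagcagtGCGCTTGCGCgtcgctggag
The match began 98 bases before the RefSeq start site in Ndufs5, 191 in Ndufb4, 60 in Ndufa11, 190 in Ndufa5, 16 in Ndufs6 and 30 in Ndufa8. Ndufb4 held 3 matches, of which the farthest from the start site is shown, and the match in Ndufa6 lay 23 bases after its start site.

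The YY1 motif AAGATGGCG, searched on both strands, was in 5 of the 33 genes (15.2%) and in 1.64% of all genes with a promoter. All 5 matches lay on the strand of the gene, and in each of them the ATG within the motif is the annotated start codon. They are shown in the same way, since this placement is shared by all of them.
Ndufs4, chr13:114388045-114388074, minus strand: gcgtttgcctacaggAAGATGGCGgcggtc
Ndufs6, chr13:73328433-73328462, minus strand: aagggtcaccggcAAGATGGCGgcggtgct
Ndufc1, chr3:51408914-51408943, minus strand: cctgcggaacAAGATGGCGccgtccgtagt
Ndufs7, chr10:80249463-80249492, plus strand: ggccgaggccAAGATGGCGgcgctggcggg
Ndufa9, chr6:126849096-126849125, minus strand: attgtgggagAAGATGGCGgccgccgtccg
Ndufs6 held both motifs, which did not overlap. The GABP motif CCGGAAGT was in 1 of the 33 genes (3.03%, against 4.31% of all genes), the motif of the estrogen-related receptors AAGGTCA in 3 (9.09%, against 5.38%) and the cAMP response element TGACGTCA in 3 (9.09%, against 2.03%). These are matches of letters, and binding was not measured. On the log2 scale, the fold changes described below had a median of -0.30 in the 7 genes with the NRF1 motif and -0.20 in the 26 with a promoter but without it, with no test made of the difference, and the ranges of -0.33 to -0.11 and -0.30 to 0.02 overlapped. The 7 genes with the motif have coding sequences of 318 to 516 nt. Among the 26 without it are Ndufa9, Ndufa10, Ndufv1 and Ndufv3, at 1065 to 1404 nt. Since the fold change also followed coding length, as described below, the motif and the length cannot be told apart here.

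The reads counted on genes ran from 42619258 to 49100802 in the KOb/c libraries and from 41364857 to 42037397 in the WT libraries. At this depth, counting error alone was at most 3.35% of the count, for Ndufa4l2. The count of Slc4a4, the targeted gene, was 264, 945 and 269 in KOb/c and 675, 822 and 789 in WT hearts, in the order of replicates 1, 2 and 3, an order kept for all values below. The library labelled KOb/c replicate 2 was thus above every WT library for Slc4a4, and the main counts below are also given without it. For Slc4a4 the log2 fold change was -0.90 (SE, the standard error, 0.42, with an adjusted p of 0.239 by limma after Benjamini-Hochberg adjustment, as for each adjusted p below), and an exact two-sided permutation test gave p = 0.4. Without that library, it was -1.51 (adjusted p = 0.0121, limma). The smallest p that 3 mice against 3 allow in that test is 0.1. All variants of NBCe1 are counted together in these values.

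To find whether complex I transcripts differ between the genotypes, log2(normalized count + 1) was compared gene by gene. The complex I genes were a little lower in the KOb/c hearts: 35 of 38 had a log2 fold change below 0, as did 50.8% of the 16016 genes tested, and their median was -0.21 (13.7% lower in KOb/c), against -0.0043 for all genes tested. Among all genes tested, 2083 were higher and 1681 lower at an unadjusted p under 0.05, so that 55.3% of these were higher, and rescaling to the same total, which moved this share to 33.1%, put all 38 complex I genes below 0 (62.1% of all genes tested) with 34 at an unadjusted p under 0.05 (15.9% of all genes tested were lower there). The range ran from -0.33 for Ndufa2 and -0.33 for Ndufa6 to 0.03 for Ndufs1. In heart tissue, fewer cardiomyocytes and less of these mRNAs per cell cannot be told apart. No complex I gene had an adjusted p under 0.05 by limma, nor did any of the genes tested (0.0%). At an unadjusted p under 0.05, 25 complex I genes were lower and 0 were higher, where 10.5% of all genes tested were lower and 13.0% were higher. All 3 KOb/c libraries were below all 3 WT libraries for 26 of the 38 genes and above them for 0, against 14.6% and 15.6% of all genes tested. For each of these 26, the exact permutation test gave p = 0.1, the smallest it allows. Without the library labelled KOb/c replicate 2, the median was -0.20 and 35 genes were below 0 (50.8% of all genes tested). Of the 38 genes, 19 were then lower at an unadjusted p under 0.05 (8.92% of all genes tested). For 26 genes both remaining KOb/c libraries were below all WT libraries, which with fewer libraries held for 19.4% of all genes tested.

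The count of calls depended on the test. On the recovered reads, the quasi-likelihood test in edgeR gave 0 complex I genes at an adjusted p under 0.05 (0.0% of all genes tested) and 24 that were lower at an unadjusted p under 0.05 (10.7% of all genes tested). The Wald test of DESeq2 on the same reads gave 19 that were lower and 0 that were higher at an adjusted p under 0.05, against 5.03% and 8.22% of the 11979 genes to which it gave an adjusted p. These 19 are Ndufa1, Ndufa2, Ndufa4, Ndufa5, Ndufa6, Ndufa7, Ndufb2, Ndufb4, Ndufb5, Ndufb6, Ndufb7, Ndufb8, Ndufb9, Ndufb11, Ndufc1, Ndufs3, Ndufs4, Ndufs5 and Ndufs6. With DESeq2, 4 complex I genes were lower without WT replicate 1 (1.82% of all genes with an adjusted p), 11 without the library labelled KOb/c replicate 2 (3.66%), and 16 to 18 without any other library (4.13% to 4.75%). By limma, 14 had an adjusted p under 0.1, all lower (3.03% of all genes tested were lower at that threshold), which became 9 without KOb/c replicate 3, 3 without WT replicate 2 and 0 without any other library. Over all genes tested, that count of lower genes was 486, and became 331 (2.07%) without KOb/c replicate 3, 269 (1.68%) without WT replicate 2, 3 without the library labelled KOb/c replicate 2 and 0 without each of the other libraries.

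The libraries contributed unevenly. WT replicate 1 held the highest value for 33 of the 38 genes. The lowest value was in the library labelled KOb/c replicate 2 for 23 genes and in KOb/c replicate 1 for 13. The median deviation of the 38 genes from their own mean was -0.13, -0.13 and -0.05 on the log2 scale in the KOb/c libraries and 0.18, 0.08 and 0.06 in the WT libraries. Every KOb/c library was thus below every WT library in this median, with KOb/c replicate 3 nearest to the WT libraries.

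**Figure D1:**
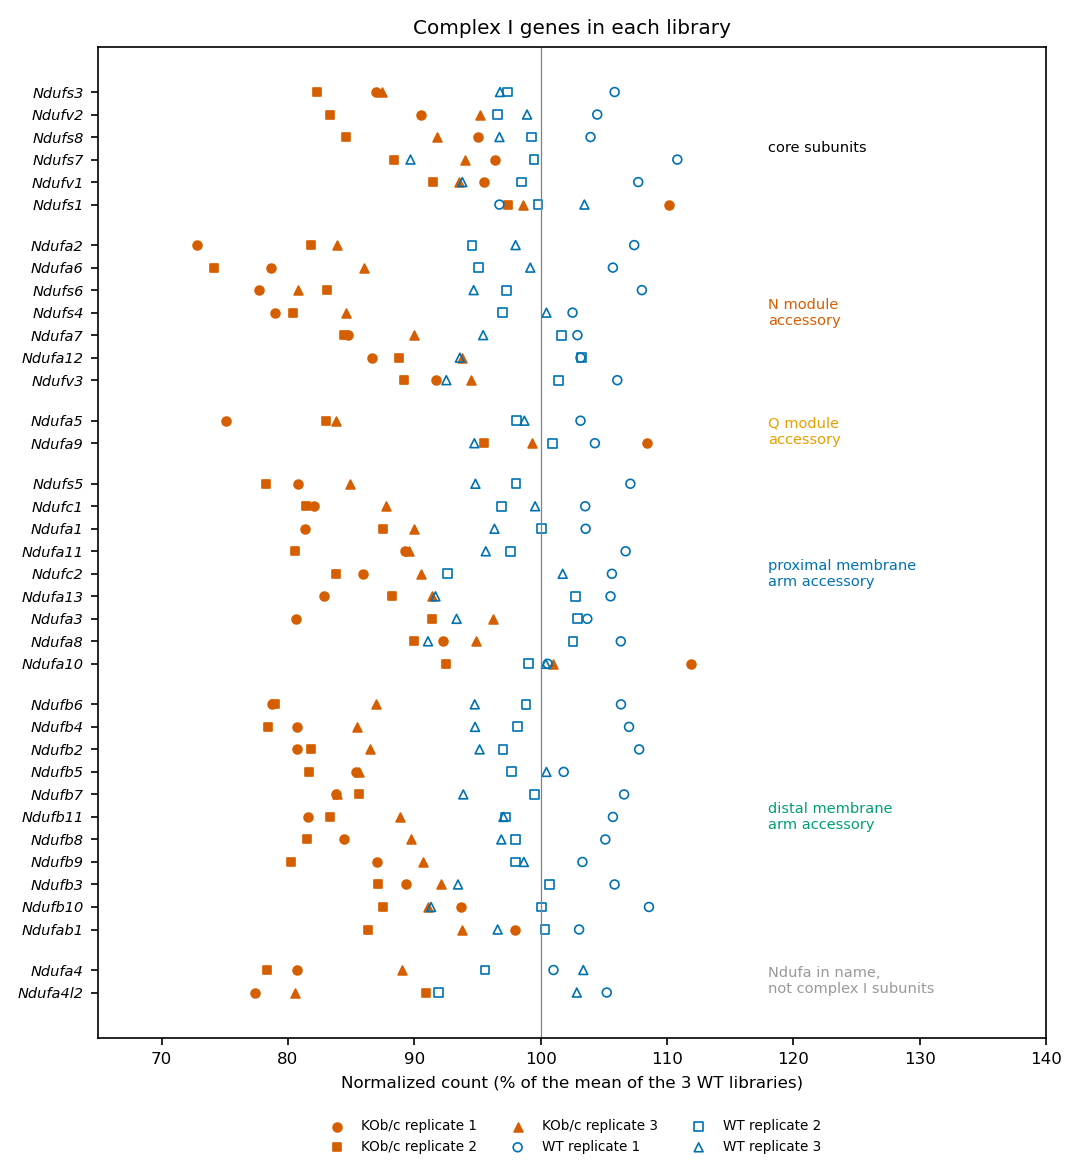
Normalized counts of 37 of the 38 genes in each library, as a percentage of the mean of the 3 WT libraries (x axis), with genes in rows by their place in complex I and filled symbols for KOb/c and open symbols for WT replicates. For 26 genes all filled symbols lie left of all open ones.

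The 7 nuclear core subunits, among which are the carriers of the flavin and the iron-sulfur clusters, had the median log2 fold change nearest to 0 of the 5 places within complex I, -0.10, with 6 of 7 below 0. Of the 7, 1 was lower at an unadjusted p under 0.05 (10.5% of all genes tested) and 3 were lower without overlap (14.6%). Their median coding length was 789 nt, against 411 nt for the accessory subunits, and the fold change also followed coding length, as described below. Ndufs1 (ENSMUSG00000025968; chromosome 1, 63143596 to 63176833, minus strand of GRCm38), the largest core subunit and a carrier of iron-sulfur clusters, had normalized counts of 42584, 37649 and 38105 in KOb/c and 37397, 38577 and 39998 in WT hearts. Its KOb/c and WT values overlapped, and the log2 fold change was 0.03 (SE 0.08, adjusted p = 0.867, limma). Its sign reversed after rescaling to the same total and after quantile normalization.

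Ndufv1 and Ndufv2 encode the subunits at which NADH hands over its electrons, Ndufv1 binding NADH and flavin. The count of Ndufv1 was 37755, 36178 and 36989 in KOb/c and 42590.4, 38931 and 37086 in WT hearts, with overlapping groups and a log2 fold change of -0.09 (SE 0.08, adjusted p = 0.493, limma). For Ndufv2, an iron-sulfur protein, the values were 19132, 17616 and 20120.0 in KOb/c and 22084, 20416 and 20911 in WT hearts. Its KOb/c values all lay below its WT values, with a log2 fold change of -0.16 (SE 0.07, adjusted p = 0.230, limma).

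The core subunits of the Q module include Ndufs3, Ndufs7 and Ndufs8, of which Ndufs7 lies at the ubiquinone pocket. Ndufs7 had 14649, 13432 and 14285 in KOb/c and 16844, 15119.6 and 13634 in WT hearts, with WT replicate 3 below both KOb/c replicates 1 and 3. The log2 fold change of Ndufs7 was -0.10 (adjusted p = 0.513, limma). In contrast, Ndufs3, a core subunit without an iron-sulfur cluster, was at 12647, 11969 and 12722 in KOb/c and 15398, 14161 and 14078 in WT hearts, with no overlap. This core gene had the lowest log2 fold change of the 7, -0.22 (SE 0.07, adjusted p = 0.101 by limma and 0.0259 by DESeq2). Ndufs8, an iron-sulfur protein, had 10422, 9276 and 10065 in KOb/c and 11401, 10892 and 10610.5 in WT hearts, also without overlap, and a log2 fold change of -0.15 (adjusted p = 0.231, limma).

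The accessory subunits of the N module were the lowest group, with a median log2 fold change of -0.30 over 7 genes, all below 0. Of these, 6 were lower at an unadjusted p under 0.05 (10.5% of all genes tested) and 5 were lower without overlap (14.6%). Ndufa2, a small subunit with a thioredoxin fold, had 4422, 4972 and 5100.3 in KOb/c and 6528, 5747 and 5957 in WT hearts. Its mean ± SD over 3 hearts was 4832 ± 360.2 in KOb/c and 6077 ± 404 in WT hearts, which is 20.5% lower in KOb/c by the log2 fold change of -0.33 (SE 0.08, adjusted p = 0.0834 by limma and 0.00591 by DESeq2). Of its exon bases, 11.5% overlap Tmco6 on the opposite strand. Ndufa6 (ENSMUSG00000022450; chromosome 15, 82350140 to 82354322, minus strand), a LYR protein that holds the acyl carrier protein on the matrix arm, had 5655, 5330.0 and 6182 in KOb/c and 7597, 6834 and 7127 in WT hearts and a log2 fold change of -0.33 (SE 0.07, adjusted p = 0.0815 by limma and 0.00445 by DESeq2).

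Ndufs6, a zinc-binding subunit, and Ndufs4, whose loss is a cause of Leigh syndrome, are both needed for a stable N module. Counts of Ndufs6 were 8802, 9405 and 9148 in KOb/c and 12231, 11016 and 10723 in WT hearts. Counts of Ndufs4 (ENSMUSG00000021764; chromosome 13, 114287795 to 114388258, minus strand) were 6193, 6305 and 6633 in KOb/c and 8039, 7606 and 7877 in WT hearts. The KOb/c values of both genes lay apart from the WT values, with log2 fold changes of -0.31 and -0.30 (SEs 0.07 and 0.06, adjusted p = 0.0815 and 0.0815 by limma, 0.00365 and 0.00189 by DESeq2). The remaining N module genes had log2 fold changes of -0.21 for Ndufa7, -0.16 for Ndufa12 and -0.12 for Ndufv3, and the groups overlapped for Ndufa12 and Ndufv3.

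The Q module has only 2 of these accessory genes, and they differed from each other. Ndufa5 had 9638, 10662 and 10759 in KOb/c and 13244, 12598 and 12674 in WT hearts, with no overlap, and a log2 fold change of -0.31 (SE 0.07, adjusted p = 0.0815 by limma and 0.00232 by DESeq2). Ndufa9, which lies beside the ubiquinone pocket, had 23413, 20623 and 21459 in KOb/c and 22526, 21802 and 20465 in WT hearts. Its groups overlapped and its log2 fold change was 0.01 (SE 0.07, adjusted p = 0.929, limma), which reversed in sign after rescaling to the same total.

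**Figure D2:**
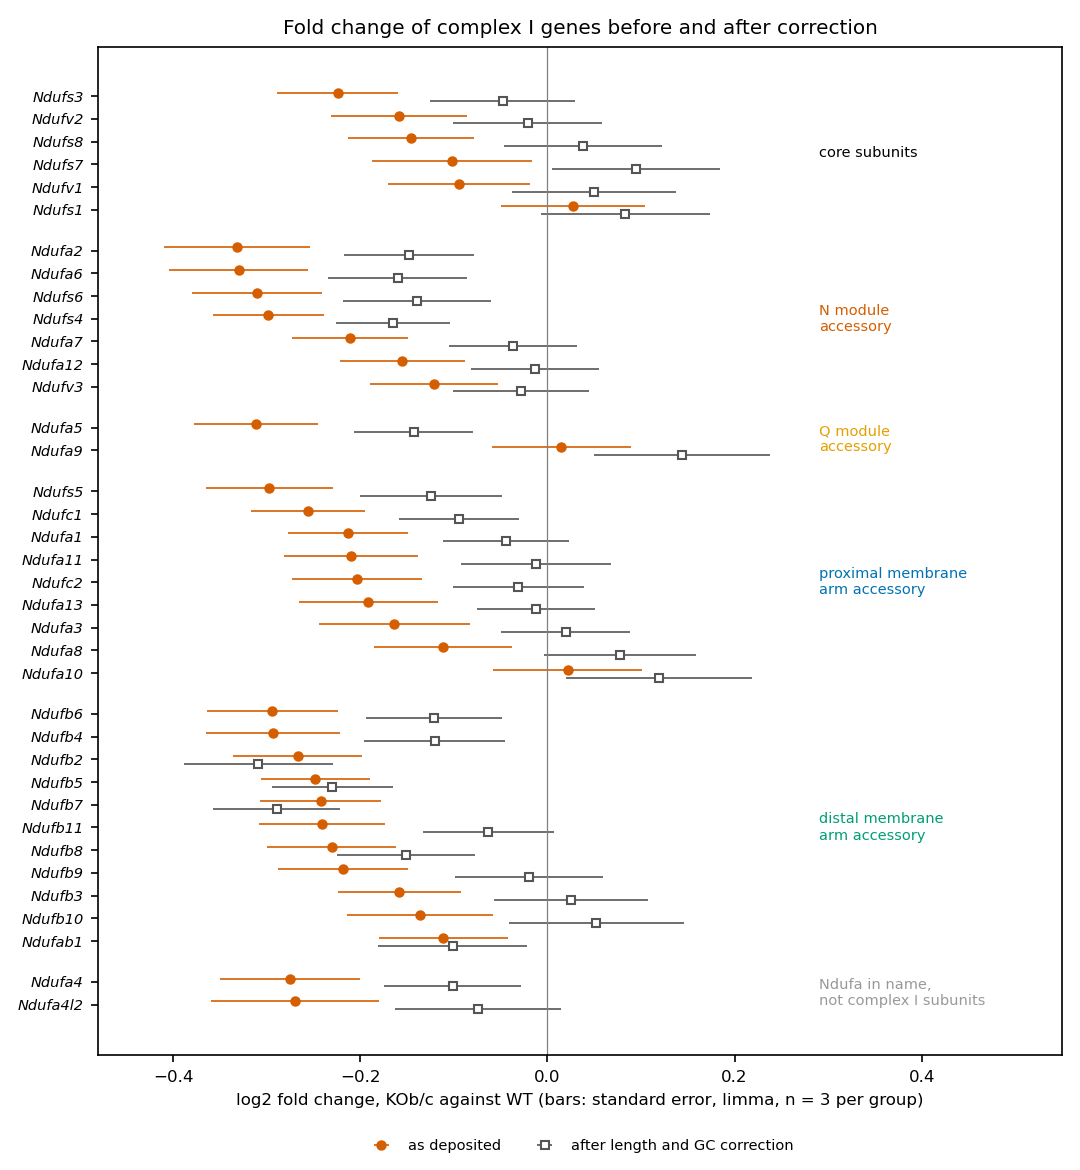
The log2 fold change of 37 of the 38 genes, KOb/c against WT (x axis; bars are standard errors from limma, n = 3 per group), as deposited (filled circles) and after correction for transcript length and GC content (open squares). The median of all 38 genes is -0.21 before and -0.04 after correction. After rescaling to the same total, Ndufa9, Ndufa10 and Ndufs1 also lie below 0.

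In the proximal membrane arm, 8 of 9 accessory genes had a log2 fold change below 0, with a median of -0.20. At an unadjusted p under 0.05, 6 were lower (10.5% of all genes tested), and 6 were lower without overlap (14.6%). Ndufs5 had 5429, 5258 and 5707 in KOb/c and 7198, 6589 and 6374 in WT hearts and Ndufc1 had 5067, 5028 and 5418 in KOb/c and 6390.4, 5981 and 6146 in WT hearts. The log2 fold changes were -0.30 and -0.26 (adjusted p = 0.0815 and 0.0834 by limma, 0.00596 and 0.0109 by DESeq2), and neither gene had a KOb/c value above a WT value. Ndufa10, a subunit related to nucleoside kinases, stood apart from this group with 24982, 20656 and 22544 in KOb/c and 22446, 22105 and 22413 in WT hearts. Its value in KOb/c replicate 1 was the highest and that in the library labelled KOb/c replicate 2 the lowest, with a log2 fold change of 0.02 (SE 0.08, adjusted p = 0.902, limma) that reversed in sign after rescaling to the same total. The other proximal genes were Ndufa1 (-0.21), Ndufa11 (-0.21), Ndufc2 (-0.20), Ndufa13 (-0.19), Ndufa3 (-0.16) and Ndufa8 (-0.11), each value a log2 fold change, with overlapping groups for Ndufa3 and Ndufa8. Ndufa13, also known as GRIM-19, overlaps exons of Tssk6 on the opposite strand.

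The distal membrane arm, which carries the pump farthest from the matrix arm, has 11 accessory genes here, and all 11 had a log2 fold change below 0, with a median of -0.24. Of these, 9 were lower at an unadjusted p under 0.05 (10.5% of all genes tested) and 9 were lower without overlap (14.6%). By DESeq2, 8 were lower (5.03% of the genes to which it gave an adjusted p). Ndufb6 had 5238, 5255 and 5784 in KOb/c and 7077, 6577 and 6306 in WT hearts, and Ndufb4, with the lowest normalized counts of the group before any division by length, had 1899.5, 1844 and 2010.5 in KOb/c and 2517, 2309.8 and 2230.4 in WT hearts. In both, the highest KOb/c value was below the lowest WT value, and the log2 fold changes were -0.29 and -0.29 (adjusted p = 0.0834 and 0.0844 by limma, 0.00798 and 0.0140 by DESeq2). Ndufb6 shares 39.0% of its exon bases with Smim27 on the opposite strand, and the strand setting of the count is not given in the sources used here. Ndufb10 and Ndufab1, the mitochondrial acyl carrier protein that also serves fatty acid synthesis, had log2 fold changes of -0.14 and -0.11 with overlapping groups.

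Ndufb2, Ndufb5 and Ndufb7, also of the distal arm, are small subunits whose longest annotated transcripts are long, at 4371, 3127 and 4435 nt. Normalized counts were 5255, 5325 and 5629.8 in KOb/c and 7017, 6316 and 6195 in WT hearts for Ndufb2. Those of Ndufb5 were 12019.6, 11489 and 12046 in KOb/c and 14331, 13752 and 14138 in WT hearts, and those of Ndufb7 were 7793, 7963 and 7802 in KOb/c and 9916, 9256 and 8733 in WT hearts. No KOb/c library reached a WT library in any of the 3 genes, with log2 fold changes of -0.27, -0.25 and -0.24. Ndufb9, a LYR protein that holds the acyl carrier protein on the membrane arm, had 18596, 17151 and 19376 in KOb/c and 22071, 20941 and 21081 in WT hearts, with a log2 fold change of -0.22 (adjusted p = 0.116 by limma and 0.0365 by DESeq2). Ndufb8, Ndufb11 and Ndufb3 had -0.23, -0.24 and -0.16 on the same scale, each without overlap, as was Ndufb9. Ndufb5 shares 12.3% of its exon bases with Mrpl47 and Ndufb11 shares 12.9% with Rbm10, both on the opposite strand, and Ndufb9 shares 19.5% with the gene model Gm49356 on its own strand.

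The 2 genes that carry the name but not the function showed the same sign. Ndufa4 (ENSMUSG00000029632; chromosome 6, 11900292 to 11907497, minus strand) had 24594, 23886 and 27124 in KOb/c and 30787, 29134 and 31507 in WT hearts, with no overlap, and a log2 fold change of -0.28 (SE 0.07, adjusted p = 0.0933 by limma and 0.00911 by DESeq2). Ndufa4l2, a gene induced by hypoxia, was the least abundant of the 38 with 886, 1041 and 922 in KOb/c and 1205, 1052 and 1178 in WT hearts, and its log2 fold change was -0.27 (SE 0.09, adjusted p = 0.126 by limma and 0.0767 by DESeq2). The KOb/c value nearest to WT was that of the library labelled KOb/c replicate 2, which lay just under WT replicate 2.

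Levels of different genes were compared as the mean normalized count per kb of the longest annotated transcript. On this scale, Ndufb9 (28224), Ndufb10 (23698), Ndufv1 (23031) and Ndufa4 (22596) were among the highest, and Ndufb7 (1934), Ndufb2 (1363) and Ndufa4l2 (1054) were the lowest. Per kb of the longest coding sequence, a scale added after the values had been seen, Ndufa4 was the highest (113165), followed by Ndufb10 (37432), Ndufb9 (37001) and Ndufb8 (36251), and Ndufb4 (5517), Ndufv3 (4803) and Ndufa4l2 (4013) were the lowest. Ndufb2 and Ndufb7 thus left the bottom of the order when the coding length was used, at ranks 25 and 20 of 38, and the transcript that the reads came from was not resolved. Ndufa4l2 was last on both scales.

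Most complex I subunits are small proteins, and the fold change followed gene length across the whole table. Across 15978 genes, which are not independent replicates, Spearman's rho between log2 fold change and transcript length was 0.45. Among the 38 complex I genes it was 0.31 for transcript length and 0.64 for coding length, a description over genes that share the same 6 libraries. The 22 complex I genes with a coding sequence below 500 nt had a median log2 fold change of -0.25, and the 1201 genes of this class had -0.20. From 500 to 1000 nt, the values were -0.19 for 10 complex I genes and -0.10 for 3189 genes. Above 1000 nt, the 6 complex I genes (Ndufs1, Ndufv1, Ndufv3, Ndufa9 and Ndufa10 among them) had a median of -0.03, against 0.06 for 9640 genes, and the groups overlapped for all 6.

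**Figure D3:**
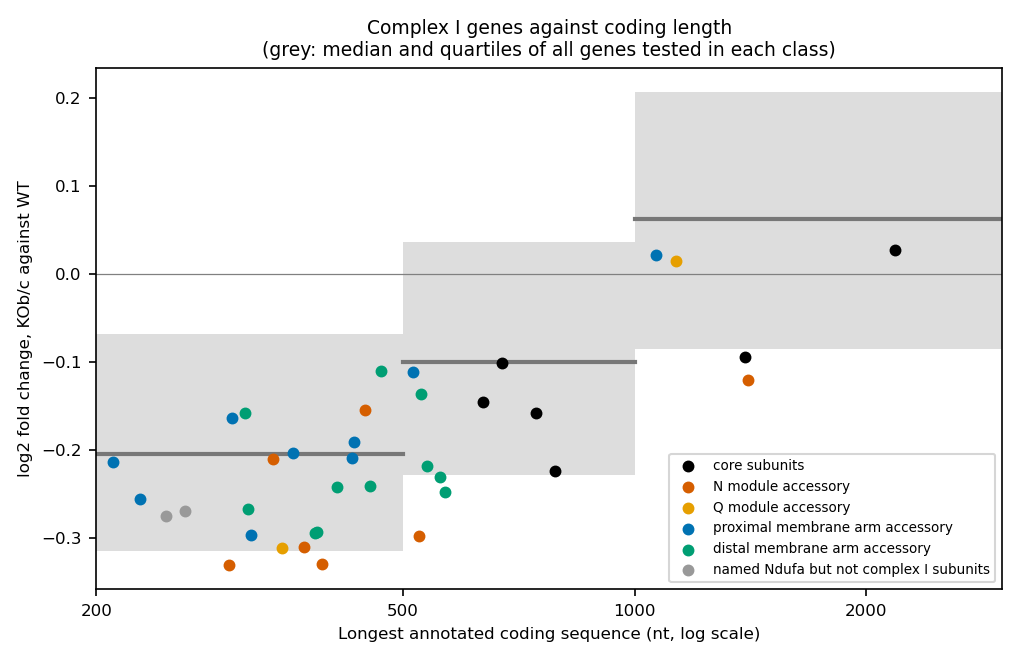
The log2 fold change of 37 of the 38 complex I genes, KOb/c against WT (y axis), against its longest annotated coding sequence (x axis, log scale), with points coloured by place in the complex and grey lines and bands for the median and quartiles of all genes tested in 3 classes of length. The 22 genes below 500 nt have a median of -0.25 and lie below 0.

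In single libraries, the deviation of each gene from its mean over the 6 libraries correlated with transcript length by a rho of 0.35, 0.30 and 0.17 in KOb/c and -0.34, -0.30 and -0.24 in WT hearts, across 15978 genes. Genotype and this length dependence cannot be told apart by library. After each library's deviation was corrected for transcript length and GC content with splines, the rho for the fold change was 0.03, and the complex I genes had a median log2 fold change of -0.04 with 27 of 38 below 0, against 47.6% of all genes tested. At an unadjusted p under 0.05, 4 were lower and 0 were higher (6.69% of all genes tested were lower). The medians of the libraries after correction, 0.03, -0.07 and -0.05 in KOb/c and 0.10, 0.03 and -0.04 in WT hearts, overlapped between the genotypes.

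The corrected medians by place were 0.04 for the core subunits, -0.14 for the N module, 0.0005 for the Q module, -0.01 for the proximal arm and -0.12 for the distal arm, with the N module and distal arm accessory genes again the lowest groups. The 4 genes were Ndufb2 (corrected log2 fold change -0.31), Ndufb7 (-0.29), Ndufb5 (-0.23) and Ndufs4 (-0.16), and the first 3 have long transcripts and short coding sequences. Ndufab1, also of the distal arm, has a long transcript (3479 nt) and a short coding sequence (468 nt) too. Its corrected log2 fold change was -0.10 (unadjusted p = 0.235, limma). With the correction as offsets, DESeq2 gave 3 complex I genes that were lower at an adjusted p under 0.05 (1.19% of all genes), Ndufb7 (0.0172), Ndufb2 (0.0312) and Ndufb5 (0.0457), the values being adjusted p. With coding length in place of transcript length, chosen after the data had been seen, the median was -0.05, 25 of 38 were below 0 (49.3% of all genes tested), and Ndufs4 alone was lower at an unadjusted p under 0.05 (6.36% of all genes tested), with a log2 fold change of -0.18. The core subunits then had a median of -0.05, so the sign of their corrected median depended on which length was used. With coding length, the accessory genes had medians of -0.12 for the N module, -0.05 for the Q module, 0.03 for the proximal arm and -0.06 for the distal arm. The distal arm thus lay close to the core subunits.

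**Figure D4:**
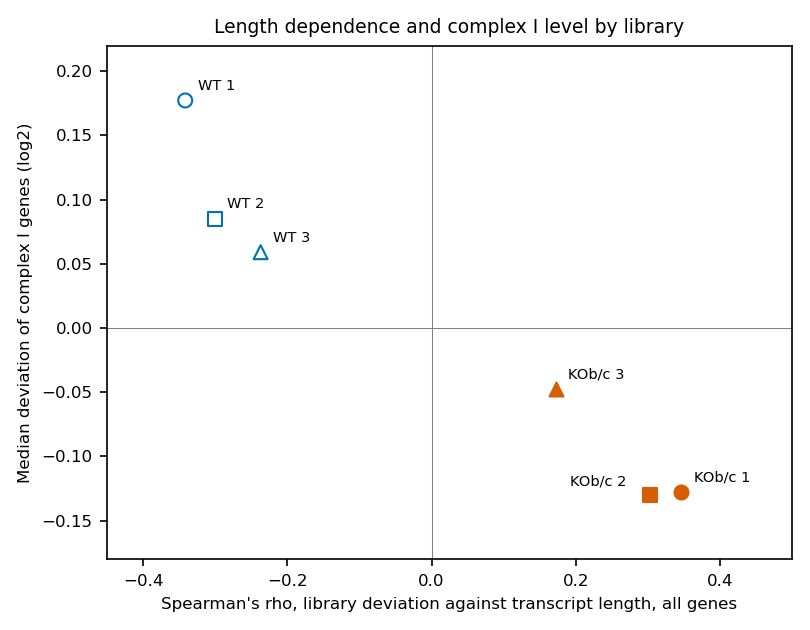
For each library, Spearman's rho between the deviation of all genes and transcript length (x axis) and the median deviation of the 38 complex I genes on the log2 scale (y axis). The KOb/c libraries (filled) have a rho from 0.17 to 0.35 and medians from -0.13 to -0.05, and the WT libraries (open) a rho from -0.34 to -0.24 and medians from 0.06 to 0.18.

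The mitochondrial genome encodes the 7 core subunits of the membrane arm, mt-Nd1 to mt-Nd6 and mt-Nd4l, and these did not share the sign of the nuclear genes. All 7 had a log2 fold change above 0, as did 7879 of the 16016 genes tested, with a median of 0.17. At an unadjusted p under 0.05 by limma, mt-Nd4l alone of the 7 was higher, as were 13.0% of all genes tested. The KOb/c libraries were all above the WT libraries for mt-Nd2, mt-Nd4, mt-Nd4l and mt-Nd5, as they were for 15.6% of all genes tested. mt-Nd5 had 1232500.0, 988007 and 844338 in KOb/c and 686998, 757569 and 802682 in WT hearts, and mt-Nd4l, which overlaps mt-Nd4, had 1714, 1272 and 989 in KOb/c and 835, 973 and 789 in WT hearts. Their log2 fold changes were 0.43 and 0.58 (adjusted p = 0.226 and 0.112 by limma, 0.00703 and 0.00760 by DESeq2). mt-Nd1, in contrast, had overlapping values and a log2 fold change of 0.04. After the correction for length and GC content, the median of the 7 was 0.33 and all 7 were above 0.

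The sum of the 7 mitochondrial counts was 7.39, 6.90 and 5.82 times that of the 36 nuclear subunits in KOb/c hearts, and 4.75, 5.19 and 5.52 times in WT hearts. The ratio was thus higher in each KOb/c library than in any WT library, with KOb/c replicate 3 and WT replicate 3 closest to each other. As a share of all counts in a library, the mitochondrial genes held 7.18, 6.93 and 6.24% in KOb/c and 5.84, 6.05 and 6.34% in WT hearts, and these overlapped. The shares of the nuclear subunits, 0.97, 1.00 and 1.07% in KOb/c and 1.23, 1.17 and 1.15% in WT hearts, did not overlap.

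**Figure D5:**
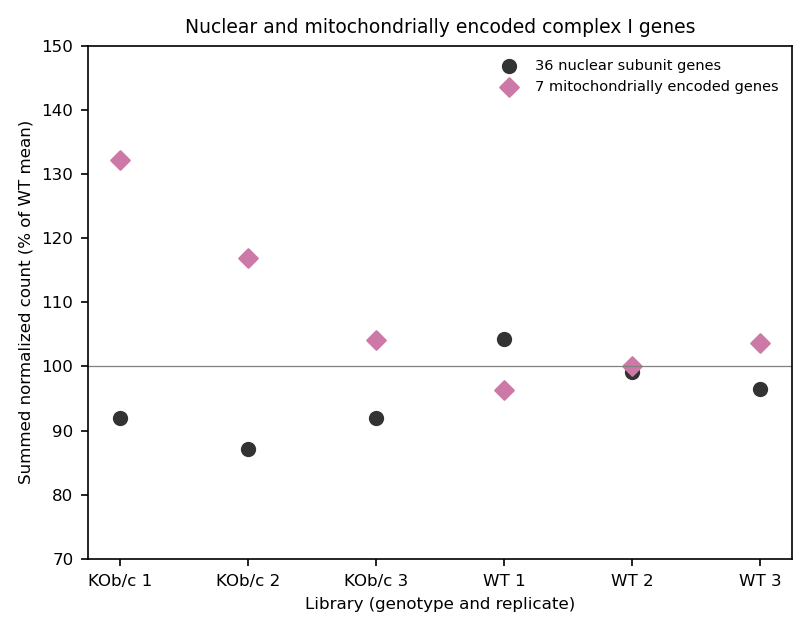
Summed normalized counts of the 36 nuclear subunit genes (circles) and the 7 mitochondrially encoded complex I genes (diamonds) in each library (x axis), as a percentage of the WT mean (y axis). The mitochondrial sum is 5.82 to 7.39 times the nuclear one in KOb/c and 4.75 to 5.52 times in WT hearts.

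Complex I is put together by assembly factors that are not part of the finished enzyme. Of 18 listed, 16 had a log2 fold change below 0 (50.8% of all genes tested), with a median of -0.06. At an unadjusted p under 0.05, 5 were lower (Ndufaf2, Ndufaf5, Ndufaf6, Ndufaf8 and Tmem126a) and 0 were higher, where 10.5% and 13.0% of all genes tested were. KOb/c values were all below WT for 8 (14.6% of all genes tested). Ndufaf8 had 606, 672 and 639 in KOb/c and 765, 828 and 751 in WT hearts and Tmem126a, which acts on the membrane arm, had 1897, 1922 and 1940.4 in KOb/c and 2333, 2184 and 2316 in WT hearts. Both were without overlap, with log2 fold changes of -0.29 and -0.25 (adjusted p = 0.0989 and 0.0844 by limma). Tmem126a alone of the 18 was lower by DESeq2 (adjusted p = 0.0237), as were 5.03% of the genes to which it gave an adjusted p. Ndufaf1 and Tmem186, of which Ndufaf1 belongs to an early assembly intermediate, were the 2 factors above 0, with log2 fold changes of 0.01 and 0.06. After the correction for length and GC content, the median of the 18 was 0.0034, with 8 below 0 (47.6% of all genes tested) and 10 above. At an unadjusted p under 0.05, 0 were then lower (6.69% of all genes tested) and 0 were higher.

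The nuclear genes of complexes II to V, which take over the electrons and make ATP, were also mostly lower in KOb/c hearts. Of 44 genes, 42 were below 0 (50.8% of all genes tested), with a median log2 fold change of -0.18. At an unadjusted p under 0.05, 25 were lower (10.5% of all genes tested). All KOb/c libraries were below all WT libraries for 27 (14.6% of all genes tested). By DESeq2, 20 were lower (5.03% of the genes to which it gave an adjusted p). The median coding length of the 44 was 334.5 nt, and the 1201 genes tested with a coding sequence below 500 nt had a median log2 fold change of -0.20. Atpif1, the inhibitor of ATP synthase, had 2742, 2719.8 and 2902 in KOb/c and 4294, 3337 and 3836 in WT hearts and a log2 fold change of -0.45 (adjusted p = 0.0815 by limma and 0.000919 by DESeq2). Atp5j2, a subunit of ATP synthase, and Uqcrq, a subunit of complex III, had -0.37 and -0.33, likewise without overlap. The 2 genes above 0 were Sdha, for the large catalytic subunit of complex II, and Atp5a1, for a subunit of ATP synthase. Their log2 fold changes were 0.19 and 0.16, with overlapping groups for both. After the correction for length and GC content, the median of the 44 genes was -0.06.

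Among 18 regulators of mitochondrial gene expression, the median log2 fold change was 0.09, with 5 higher (Ppargc1a, Gabpa, Esrrb, Esrrg and Ppara) and 0 lower at an unadjusted p under 0.05. At this threshold, 13.0% of all genes tested were higher and 10.5% lower. Ppargc1a, the coactivator PGC-1α, had 4613, 3358 and 3128 in KOb/c and 3047, 2931 and 2816 in WT hearts, with all KOb/c values above WT and a log2 fold change of 0.32 (adjusted p = 0.192, limma). Esrrg, an estrogen-related receptor, had 2456, 1684 and 1809 in KOb/c and 1233, 1495 and 1546 in WT hearts and a log2 fold change of 0.46 (adjusted p = 0.115 by limma and 0.0149 by DESeq2). Gabpa, a subunit of GABP, had 0.15, while Nrf1 (-0.0027), Tfam (-0.07), Esrra (-0.11) and Perm1 (0.11) had overlapping groups. After the correction for length and GC content, 2 of the 18 were higher at an unadjusted p under 0.05, Esrrg (0.37) and Ppara (0.48), as were 1241 of the 16016 genes tested.

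Of 13 genes that mark mitochondrial mass and protein import, the median log2 fold change was -0.05, with 3 lower (Tomm20, Tomm22 and Timm23) and 1 higher (Cs) at an unadjusted p under 0.05. Of all genes tested, 10.5% were lower and 13.0% higher at that threshold. Cs, or citrate synthase, which is often used to gauge mitochondrial content, had 73676, 60503 and 66267 in KOb/c and 56719, 57986 and 58232 in WT hearts and a log2 fold change of 0.21, with no overlap (adjusted p = 0.208, limma). Tomm20, a receptor of the outer membrane import pore, was the lowest with 3219.5, 3174 and 3012 in KOb/c and 3916, 3817 and 3787 in WT hearts and a log2 fold change of -0.29 (adjusted p = 0.0815 by limma and 0.00340 by DESeq2). After the correction for length and GC content, Tomm20 (-0.38) was lower and Vdac1 (0.24) higher at an unadjusted p under 0.05. Tomm22, Timm23 and Cs then did not pass that threshold.

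The heart was checked against markers of cardiomyocytes and of other cells, since brown fat and atrial tissue are also rich in mitochondria. The sum of 6 cardiomyocyte markers was 2296570 to 2556710 in KOb/c and 1941210 to 2073250 normalized counts in WT hearts, 2 ranges that did not overlap. Without Myh6, the most abundant of the 6, the other 5 summed to 1163736 to 1297479 in KOb/c and 1176193 to 1272457 in WT hearts, and these ranges overlapped. The median log2 fold change of the 6 was 0.03, with 3 below 0 and 3 above. Myh6 and Ryr2 had log2 fold changes of 0.55 and 0.61 and passed an unadjusted p of 0.05 (13.0% of all genes tested were higher), and Tnni3 (-0.13) and Myl2 (-0.18) did not, although their groups did not overlap. Tnnt2 (-0.09) and Actc1 (0.15), also log2 fold changes, had overlapping groups. After the correction for length and GC content, Myh6 had 0.42, Ryr2 0.32, Tnni3 0.06 and Myl2 -0.01. Of the 6, Ryr2 alone then passed an unadjusted p of 0.05. No marker of fat (5 of 6 measured, Lep not listed), atrium (4 of 4), erythroid cells (5 of 5), lymphocytes and thymus (4 of 7) or skeletal muscle (5 of 6) had an unadjusted p under 0.05. The fat markers summed to between 1062 and 6586 in KOb/c and between 2389 and 5135 in WT hearts. Ucp1, which defines brown fat, had 17.9, 724 and 2948 in KOb/c and 525, 1888 and 1097 in WT hearts, so that the lowest and the highest level were both in KOb/c hearts. The other sums are each given for KOb/c first. By library, the atrial markers summed to 15430, 73940 and 88185 in KOb/c and 24703, 87282 and 109119 in WT hearts. Replicate 1 was thus the lowest of each genotype. WT replicate 1 also held the highest value for 33 complex I genes, and the part of atrial tissue in this was not tested. The erythroid markers summed to 29390 to 133453 and 52272 to 116933. The lymphocyte markers summed to 124 to 215 and 129 to 367, and the skeletal muscle markers to 120 to 2007 and 296 to 644. The sums of the macrophage markers, 6115 to 6859 and 7000 to 7630, did not overlap, while those of the endothelial markers, 54398 to 59411 and 55389 to 59058, and of the fibroblast markers, 38556 to 44169 and 37155 to 42078, did. Of 5 macrophage markers, C1qa (-0.35) and C1qb (-0.39) were lower, of 5 endothelial markers Fabp4 (-0.30) was lower and Cdh5 (0.25) higher, and of 5 fibroblast markers Tcf21 (-0.25) was lower and Col1a1 (0.30) and Pdgfra (0.49) were higher, at an unadjusted p under 0.05. At that threshold, 10.5% of all genes tested were lower and 13.0% higher. After the correction for length and GC content, Tcf21 and Col1a1 no longer passed it, and C1qa, C1qb, Fabp4, Cdh5 and Pdgfra did. The part of cardiomyocytes and of the other cells in the values of the complex I genes was not tested.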

How the data were processed

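Heart RNA of 3 KOb/c and 3 WT mice was sequenced as paired reads on an Illumina HiSeq by a service company. The submitters' processing notes name Trimmomatic 0.36, STAR 2.5.2b, featureCounts, Subread 1.5.2, DESeq2 and the build GRCm38. The strand setting is not given in the sources used here. The deposited table holds a signal, read counts per gene that the authors had divided by size factors, for 16018 genes. All values were whole multiples of 1 step per library (tolerance 0.01), from which the reads were recovered. Symbols, lengths and GC content came from GENCODE M21 (15985 genes matched).

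Here log2(value + 1) was compared for 16016 genes whose mean reached 10, with limma 3.58.1 (R 4.3.3, variance trend, two-sided, Benjamini-Hochberg adjustment over all genes tested, threshold 0.05). The scripts were tested on simulated data. Exact two-sided permutation tests were used for single genes. Alternatives were other pseudocounts, filters, scalings and variance models, a replicate block, leaving out each library, the recovered reads in edgeR 4.0.16 or DESeq2 1.42.0, and splines with 5 degrees of freedom for transcript length and GC content, fitted to each library's deviation. Coding length and DESeq2 without each library were added after seeing the data. DESeq2 gave an adjusted p to 11979 genes.

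The genes and lists were chosen with earlier results of these data known. Named were the targeted gene, the core subunits, the 5 largest log2 fold changes in each direction, genes called by DESeq2, genes whose groups did not overlap (values for at most 15), Ndufa4, Ndufa4l2, up to 4 such genes per other list, Ppargc1a, Esrra, Nrf1, Gabpa, Tfam, Perm1 and Ucp1. A gene counted in the groups is not reported here. Other genes named from the lists were chosen after their values were seen.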

Additional observations from a re-analysis of the deposited data

How the results depend on the processing

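Among 37 complex I genes, 774 of 851 recomputed fold changes kept their sign and their side of the adjusted threshold of 0.05, 22 kept their sign and passed it, and 55 changed sign. No complex I gene passed that threshold in limma under any setting tried, or in edgeR (24 at an unadjusted p under 0.05). DESeq2 called 19, 3 with offsets for length and GC content and with 1 library left out 17, 11 and 18 (KOb/c replicates 1, 2 and 3) and 4, 16 and 18 (WT replicates 1, 2 and 3). Over all genes tested the count was 0 in limma, 0 to 3 when 1 library was left out (3 without the library labelled KOb/c replicate 2), 2 without that library and with the length and GC correction, 1587 in DESeq2, 345 in DESeq2 with offsets, and in DESeq2 with the same libraries left out 776, 1195, 1490, 427, 1419 and 1118. The cause of the difference between the tests was not tested.

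The count lower at an unadjusted p under 0.05 was 25 (10.5% of all genes tested), and became 4 (6.69%) with the length and GC correction, 3 (5.81%) with that correction and without the library labelled KOb/c replicate 2, 6 (5.79%) in DESeq2 with offsets and 1 (6.36%) with coding length in the correction. The median log2 fold change of -0.21 became -0.29 at the same total, -0.040 with the length and GC correction, -0.016 with it and without the library labelled KOb/c replicate 2, -0.042 in DESeq2 with offsets and -0.047 with coding length. The 26 genes whose groups did not overlap (14.6% of all genes tested) became 9 with the correction (1607 of the 16016 genes tested) and 7 with coding length (1639 of 16016), a count that has no value of its own under another pseudocount, filter, variance model or count model. The rho between fold change and transcript length, 0.45, was 0.54 in genes with a mean of at least 50, 0.028 after the correction, 0.025 with it and without the library labelled KOb/c replicate 2, 0.030 in DESeq2 with offsets and 0.22 with coding length. The correction removes by construction what follows length. The log2 fold change of Slc4a4 was -1.51 without the library labelled KOb/c replicate 2 (-1.51 to -0.59 over the libraries left out), and -1.72 without it and with the correction.

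Replicate numbers are shared between the genotypes in the labels. The deviations of same-numbered libraries correlated by 0.23, 0.07 and -0.03. Correlations over so few libraries cannot show whether the numbers mark a pairing. With a replicate block, 24 complex I genes were lower at an unadjusted p under 0.05 (10.9% of all genes tested) and 0 passed the adjusted threshold, the median stayed at -0.21, and the block with the length and GC correction gave 7 (7.84% of all genes tested), a median of -0.040 and a rho of 0.028. Of the libraries, KOb/c replicate 1 and WT replicate 1 correlated best with their own number, and the others did not.

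The log2 fold changes that changed sign were mostly small ones. With the length and GC correction, with or without the replicate block, they were Ndufa3 0.019, Ndufa8 0.077, Ndufb10 0.052, Ndufb3 0.026, Ndufs7 0.094, Ndufs8 0.038 and Ndufv1 0.050. Without the library labelled KOb/c replicate 2 and with the correction, they were Ndufa11 0.048, Ndufa12 0.0004, Ndufa3 0.0073, Ndufa8 0.10, Ndufb10 0.086, Ndufb3 0.042, Ndufb9 0.037, Ndufs7 0.14, Ndufs8 0.094, Ndufv1 0.076 and Ndufv2 0.028. In DESeq2 with offsets, they were Ndufa3 0.018, Ndufa8 0.076, Ndufb10 0.052, Ndufb3 0.022, Ndufs7 0.096, Ndufs8 0.043 and Ndufv1 0.051. With coding length, they were Ndufa11 0.033, Ndufa12 0.015, Ndufa13 0.066, Ndufa3 0.052, Ndufa4l2 0.032, Ndufa8 0.073, Ndufab1 0.029, Ndufb10 0.040, Ndufb3 0.020, Ndufs1 -0.060, Ndufs7 0.094 and Ndufs8 0.016. At the same total they were Ndufa10 -0.051, Ndufa9 -0.058 and Ndufs1 -0.045, with quantile normalization Ndufs1 -0.0044, and with sample quality weights Ndufa10 -0.015, Ndufa9 -0.0077 and Ndufs1 -0.0075. Without KOb/c replicate 1 they were Ndufa10 -0.049, Ndufa9 -0.037 and Ndufs1 -0.029, and without WT replicate 3 Ndufa9 -0.024. Without the library labelled KOb/c replicate 2, the same 3 genes had their highest values of any library left out, Ndufa10 0.088, Ndufa9 0.055 and Ndufs1 0.060. The cause was not tested beyond the length and GC content that the corrections remove. With 3 hearts per genotype, the spread between hearts, more than counting error, limited the precision.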
